A study of Mus musculus with 8 samples.

Results

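T cell receptor V segments are the gene pieces that supply most of the variable domain of each receptor chain. The gene count table held 144 rows annotated as T cell receptor V genes among 54532 rows, and these were taken by that annotation alone, with no value used. By symbol, 108 belonged to the alpha locus (Tra), 22 to the beta locus (Trb), 7 to the gamma locus (Trg) and 5 to the delta locus (Trd). The other 2 carried clone names, B230359F08Rik and C920008G01Rik, and were kept out of the loci.

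The RNA came from mouse spleen CD4 T cells cultured for 2 days under conditions that drive pathogenic Th17 differentiation, the helper T cell program linked to autoimmune inflammation. There were 4 libraries labelled Cyp1b1 knockout (Cyp1b1-/-), called knockout 1 to 4 here, and 4 labelled wild type. Both groups had the same tissue, cell type, culture and day, and the labels name no strain, sex or age. They do not tie a replicate to an animal or a culture of its own, and p-values below therefore describe spread among libraries that may be technical replicates.

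Cyp1b1 itself went against the label. It had 2179, 3169, 3007 and 2069 counts in the libraries labelled knockout, against 64, 34, 63 and 69 counts in the wild type libraries (edgeR log2 fold change 5.39, SE 0.24, adjusted p = 9.91e-07). A count per gene does not tell the exons apart. Every direction below is therefore between libraries by their labels, and "labelled knockout" is used throughout.

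Total counts ran from 13271968 to 15667313 in the libraries labelled knockout and from 8918342 to 14335944 in the wild type libraries. Wild type 2 was the shallowest. In whole-table counts, knockout 1 and 4 resembled each other more than either resembled knockout 2 or 3 (chi-square per gene 4.396 for that pair and 3.84 for knockout 2 with 3, against 8.27 to 12.3 for the mixed pairs). All V rows together summed to 3200 to 3997 counts in the libraries labelled knockout and 2026 to 3770 counts in the wild type libraries. Markers of the labelled cell type were high: the alpha-beta T cell genes, among them Cd3e, Lck, Thy1 and Cd4, summed to 4183 to 4392 CPM (counts scaled to a common library total) in the libraries labelled knockout and 4126 to 4400 CPM in the wild type libraries. In bulk RNA, fewer cells that use a segment and less receptor RNA per such cell cannot be told apart.

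During T cell development in the thymus, the RAG recombinase joins 1 V segment to a J segment, with a D segment between them in the beta and delta chains. The joined exon is spliced to a constant region, so the V part of a mature transcript tells which segment a cell had rearranged. CD4 T cells carry alpha-beta receptors, and each clone passes its segments on unchanged when it divides. A V segment ends shortly after a conserved cysteine codon, where the most variable loop of the chain begins.

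The sequences below show where related segments differ and where they do not. They are the last bases of annotated GENCODE M21 transcripts (GRCm38), sense strand, 5′ to 3′. Trbv13-2 is the segment the Trb results turn on, and it is set beside the other 2 segments of its family over their last 90 bases, with the 22 positions at which the 3 are not all alike in capitals.
Trbv13-2: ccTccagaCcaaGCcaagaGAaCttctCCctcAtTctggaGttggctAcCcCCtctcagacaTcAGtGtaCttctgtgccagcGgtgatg
Trbv13-1: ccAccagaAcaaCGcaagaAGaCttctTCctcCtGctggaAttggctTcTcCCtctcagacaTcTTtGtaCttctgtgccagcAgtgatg
Trbv13-3: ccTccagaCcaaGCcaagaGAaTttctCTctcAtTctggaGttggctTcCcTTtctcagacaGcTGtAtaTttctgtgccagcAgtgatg
Over whole transcripts, Trbv13-2 was 81.0% identical to Trbv13-1 and 90.6% identical to Trbv13-3. Even so, each 100-base window of all 3 occurred in no other annotated transcript. The same held for 20 of the 22 Trb segments, which took 99.8% of Trb V counts.

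The Tra locus is different, because blocks of it are duplicated and the copies carry the letters d or n in their symbols. The last 90 bases of 3 related copies are shown because 2 of them are the same sequence; capitals mark the 2 positions that differ within the set.
Trav6n-7: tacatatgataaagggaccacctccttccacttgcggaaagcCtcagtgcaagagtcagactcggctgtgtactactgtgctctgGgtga
Trav6d-7: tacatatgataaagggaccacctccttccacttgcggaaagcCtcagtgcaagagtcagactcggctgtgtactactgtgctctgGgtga
Trav6-7-dv9: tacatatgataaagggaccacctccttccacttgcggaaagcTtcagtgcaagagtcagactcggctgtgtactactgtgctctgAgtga
Trav6n-7 and Trav6d-7 were identical over all 358 aligned bases, and Trav6-7-dv9 was 92.9% identical to either. There were 15 such pairs of identical Tra transcripts. Of the 108 Tra segments, 36 had no 100-base window of their own, and 11 of the 13 Tra segments with no count in any library were among these. How the counting treated reads shared by copies is not given in the sources used here.

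The 4 called Trb segments and Trbv5, which was counted under 1 label alone, are shown by their last 48 bases. Capitals mark the first in-frame cysteine codon within the last 24 bases, and 13 or 14 bases follow it.
Trbv13-2: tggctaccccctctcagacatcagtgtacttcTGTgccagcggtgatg
Trbv23: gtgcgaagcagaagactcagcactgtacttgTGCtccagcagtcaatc
Trbv1: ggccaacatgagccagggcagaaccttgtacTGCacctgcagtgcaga
Trbv17: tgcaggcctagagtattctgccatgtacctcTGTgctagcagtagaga
Trbv5: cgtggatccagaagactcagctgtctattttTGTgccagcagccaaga
Trbv1 alone of these 5 had a second in-frame cysteine codon in that stretch.

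Alpha and beta segments made up nearly all V counts. Trb V rows summed to 2525, 2658, 2329 and 2884 counts in the libraries labelled knockout, against 2197, 1465, 2165 and 2685 counts in the wild type libraries. Tra V rows summed to 1060, 1056, 853 and 1086 counts in the libraries labelled knockout, against 1054, 552, 957 and 1061 counts in the wild type libraries. Trg rows had 15 counts over the 4 libraries labelled knockout and 10 over the 4 wild type libraries, and Trd rows had 45 in each group. All 22 Trb rows, 95 of 108 Tra rows, 5 of 7 Trg rows and 5 of 5 Trd rows had at least 1 count. In all, 16 of the 144 rows were at 0 in all libraries. The filter on low counts passed 19 Trb and 35 Tra segments and no Trg, Trd or clone-named row; these held 99.7% of Trb and 77.9% of Tra V counts.

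Trbv13-2 was the Trb segment with the clearest difference between labels. It lies on the plus strand of chromosome 6 at 41121396 to 41121832 (GRCm38, ENSMUSG00000076469), with a leader exon that ends at 41121441 and a V exon that starts at 41121539. It had 360, 355, 306 and 445 counts in the libraries labelled knockout, against 200, 140, 223 and 332 counts in the wild type libraries. As a share of Trb V counts this was 14.3%, 13.4%, 13.1% and 15.4% in the libraries labelled knockout, against 9.10%, 9.56%, 10.3% and 12.4% in the wild type libraries. The shares of the 2 labels did not overlap, and wild type 4 was the wild type library nearest to the libraries labelled knockout. The mean share was 14.1% ± 1.04 in the libraries labelled knockout and 10.3% ± 1.44 in the wild type libraries (SD, n = 4 each). The 95% Wilson intervals of single Trb shares reached at most 1.67 percentage points to either side, and cover counting error only.

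In the fit across the whole table, 3 of the 19 tested Trb segments rose in the libraries labelled knockout and none fell. Across all 14428 tested genes, 30.4% were called (15.7% higher and 14.6% lower), so the share of Trb segments called is below this background. Trbv13-2 stood at 0.59 on the log2 scale (SE 0.13, edgeR adjusted p = 0.00106) and a higher share in all 4 libraries labelled knockout than in any wild type library. Trbv23 had 1.11 (SE 0.34, adjusted p = 0.0169), and Trbv1 had 0.29 (SE 0.10, adjusted p = 0.0338). Trbv1 lost its call when any 1 of 5 libraries was left out (knockout 1 or 4, or wild type 1, 2 or 3; adjusted p up to 0.111) and with library totals in place of TMM scaling. Trbv23 lost it without wild type 2 (adjusted p = 0.0514). The median log2 fold change was 0.065 over the 19 Trb segments and -0.001 over all tested genes.

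A higher CPM mixes the level of the whole locus with the usage of a segment. Scaled to the Trb V sum of each library, Trbv13-2 rose by 0.44 on the log2 scale (SE 0.13, edgeR adjusted p = 0.00454) and Trbv17 fell by 0.62 (SE 0.26, adjusted p = 0.0467). These were the only calls among 19 segments; on this scale 32.4% of all tested genes were called (6.03% higher and 26.4% lower), and the median of all genes was -0.167. Trbv1 had 0.14 (adjusted p = 0.446) and Trbv23 0.96 (adjusted p = 0.0535) relative to the locus. Trbv15 and Trbv30 had -0.38 and -0.98, with adjusted p of 0.0744 and 0.0776.

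**Figure D1:**
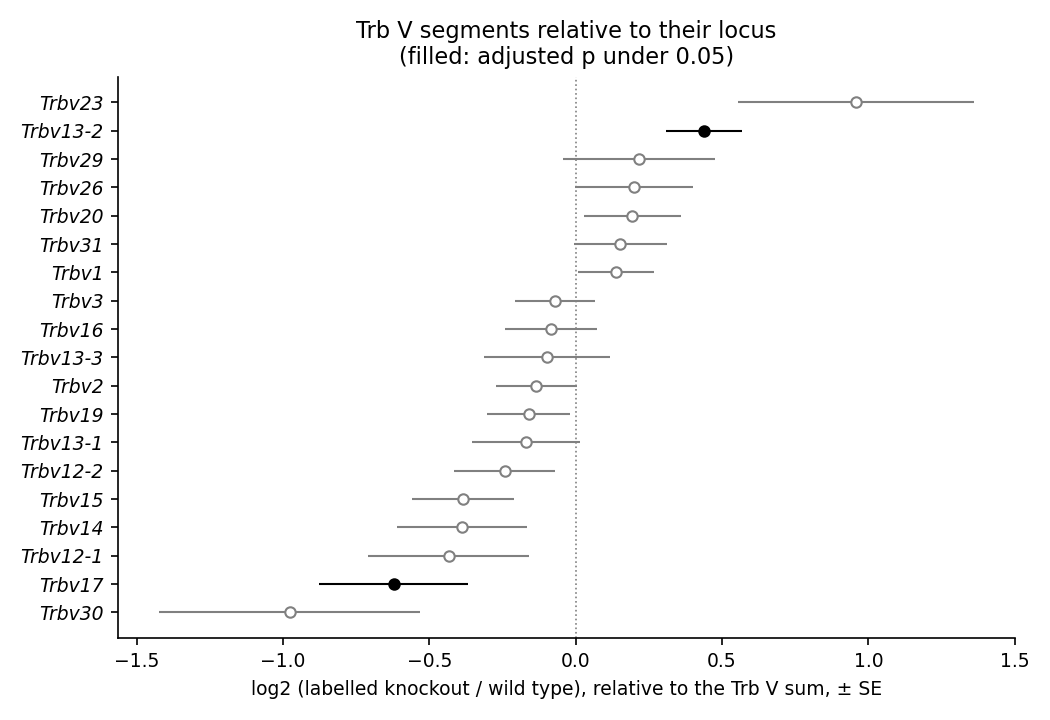
Log2 fold change of the 19 tested Trb V segments, libraries labelled knockout over wild type, relative to the Trb V sum (points) with the SE (bars). Filled points passed an adjusted p of 0.05: Trbv13-2 at 0.44 and Trbv17 at -0.62; Trbv23 and Trbv30 lie farther out with wider bars.

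The members behind these values differed in depth. Trbv23 (chromosome 6, 41216073 to 41216526) had 23, 20, 18 and 24 counts in the libraries labelled knockout, against 9, 4, 10 and 13 counts in the wild type libraries. Its share was 0.817% ± 0.071 in the libraries labelled knockout and 0.407% ± 0.095 in the wild type libraries, with no overlap between labels but few counts in each library. Trbv17 (chromosome 6, 41163062 to 41163556) had 43, 36, 26 and 43 counts in the libraries labelled knockout, against 63, 23, 54 and 47 counts in the wild type libraries. Its shares overlapped, because wild type 2 had 1.57% against 1.70% in knockout 1. Its call was lost without knockout 2, 3 or 4 and without wild type 1 or 3, with no filter and by limma-voom (adjusted p up to 0.232).

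Trbv1, the segment at the start of the locus (chromosome 6, 40891229 to 40891885), held 13.8%, 12.2%, 12.5% and 12.8% of Trb V counts in the libraries labelled knockout, against 11.9%, 10.7%, 11.8% and 12.1% in the wild type libraries. Knockout 2 and wild type 4, the libraries nearest across the labels, lay closer together than their counting intervals reach. In all, shares did not overlap for 6 of the 19 tested Trb segments. On the locus scale, 26.1% of all tested genes did not overlap. Trbv13-2, Trbv1 and Trbv23 were higher in the libraries labelled knockout, and Trbv15, Trbv19 and Trbv30 were lower. Trbv15 held 4.12% ± 0.39 in the libraries labelled knockout and 5.38% ± 0.15 in the wild type libraries. Trbv19 held 8.37% ± 0.34 in the libraries labelled knockout and 9.39% ± 0.68 in the wild type libraries. Neither passed the test on either scale.

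Outside the filter, Trbv5 was counted in every library labelled knockout and in no wild type library; it was singled out after its values were seen. It had 2, 6, 6 and 4 counts in the libraries labelled knockout and 0 in each wild type library, that is 0 of 8512 Trb V counts, which allows a share of up to 0.0352%. Pooled over the libraries labelled knockout, its 18 counts were 0.173% of Trb V counts. This is 4.91-fold the share that a floor of 3 counts over the wild type group would give. The ratio leaves out counting error in the 18 counts and spread between libraries, so it is not a lower bound. Only 26.8% of its 100-base windows are its own, since the noncoding RNA 5830405F06Rik overlaps it on the same strand. That gene had 8, 15, 11 and 7 counts in the libraries labelled knockout, against 7, 4, 5 and 11 in the wild type libraries, and its part in the Trbv5 count was not tested. With no filter on low counts, edgeR called Trbv5 (adjusted p = 0.00855). Its neighbour Trbv4 had 15 counts in all and Trbv21 had 26, of which knockout 2 held 12 and knockout 4 held 8.

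**Figure D2:**
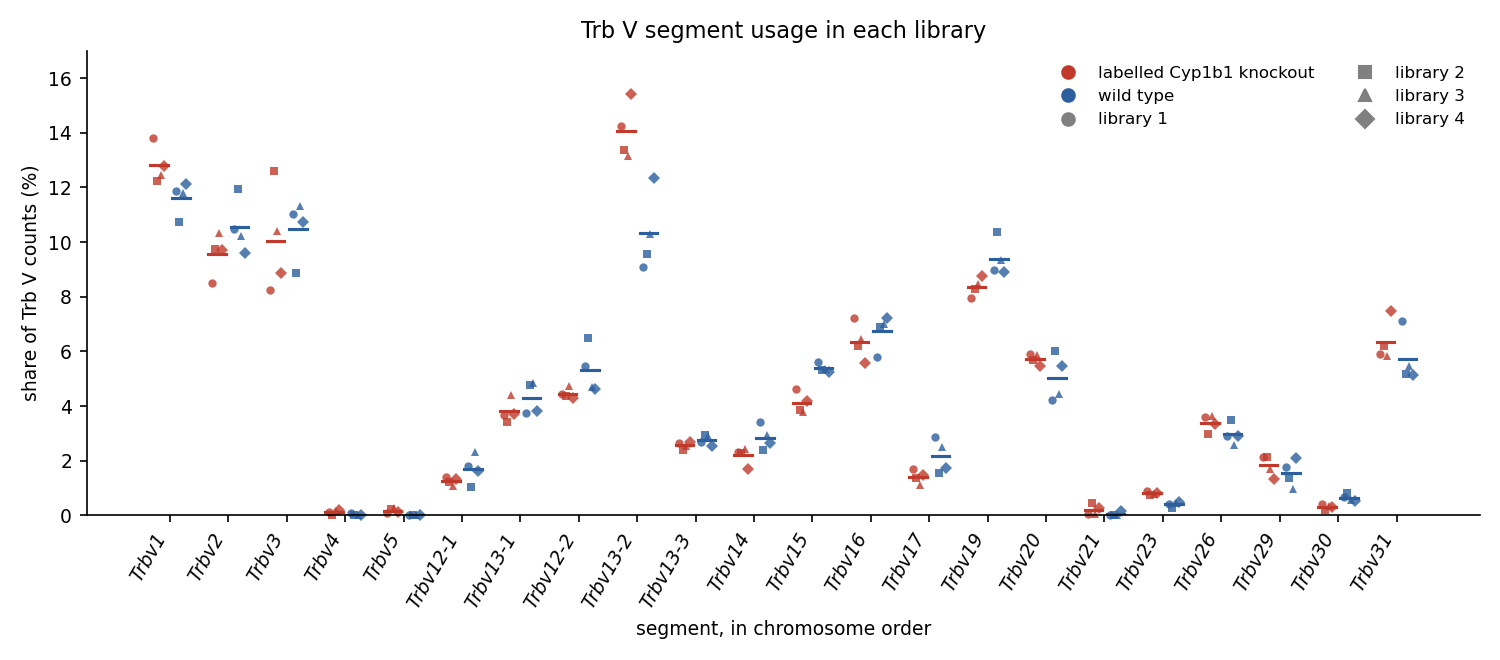
Share of each of the 22 Trb V segments in the Trb V counts of each library (percent), in chromosome order, libraries labelled knockout in red and wild type in blue; symbols tell the libraries and bars are means. Trbv13-2 averaged 14.1% in the libraries labelled knockout and 10.3% in the wild type libraries, while most other segments overlap between labels.

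The order of Trb segments was close in the 2 groups. Per base of segment length, which ran from 335 to 566 bases, Trbv13-2 came first at 16.7% of length-scaled Trb V counts in the libraries labelled knockout and 12.4% in the wild type libraries. Trbv1 followed at 12.4% in the libraries labelled knockout and 11.4% in the wild type libraries, and Trbv3 at 8.93% and 9.43% in the same order. In the libraries labelled knockout, Trbv2, Trbv20 and Trbv16 then lay within the spread of each other, at 6.93%, 6.93% and 6.47%. Labelled knockout minus wild type, they differed by -0.79, 0.78 and -0.46 percentage points, so their wild type means lay farther apart. Across the 22 segments the mean count shares of the labels had a Pearson r of 0.969, a description of libraries that share an annotation and a protocol. At the low end, 5 segments held under 1% of counts, and 17 held at least 1%.

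Among the 10 most frequent Trb segments, Trbv3 varied most within a label. It held 8.24%, 12.6%, 10.4% and 8.88% in the libraries labelled knockout, against 11.02%, 8.87%, 11.3% and 10.7% in the wild type libraries. Knockout 1 and 4 were the low ones, the pair that also lay together in whole-table counts. Trbv2 held 9.58% ± 0.77 in the libraries labelled knockout and 10.6% ± 0.99 in the wild type libraries, and Trbv16 6.36% ± 0.67 and 6.73% ± 0.65 in the same order. Trbv31, which lies beyond the constant regions in inverted orientation, held 6.36% ± 0.77 in the libraries labelled knockout and 5.72% ± 0.93 in the wild type libraries. Trbv20 held 5.74% ± 0.20 and 5.04% ± 0.85, and Trbv12-2 4.46% ± 0.19 and 5.32% ± 0.86, again with the libraries labelled knockout first. Among those with at least 1% of counts, Trbv12-1, Trbv29 and Trbv17 had the widest relative spread within labels. Trbv29 held 1.83% ± 0.40 in the libraries labelled knockout and 1.55% ± 0.49 in the wild type libraries, and Trbv12-1 1.27% ± 0.15 and 1.70% ± 0.53 in that order. None of these segments passed the test except Trbv17, on the locus scale.

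Summed by family, Trbv13 held 20.4% ± 1.11 of Trb V counts in the libraries labelled knockout and 17.4% ± 1.39 in the wild type libraries. Within it Trbv13-2 alone passed the test: relative to the locus, Trbv13-1 had a log2 fold change of -0.17 (adjusted p = 0.516) and Trbv13-3 of -0.10 (adjusted p = 0.770), beside 0.44 for Trbv13-2. These differences between members were not tested. The Trbv12 family held 5.73% ± 0.12 in the libraries labelled knockout and 7.02% ± 0.54 in the wild type libraries, without overlap.

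Trb usage as a whole lay farther apart between labels than within them. The measure was the Jensen-Shannon distance between the V shares of 2 libraries, which is 0 for equal usage. It averaged 0.109 between labels and 0.0772 within a label, and an exact one-sided permutation test gave p = 0.0286, that is 2 of 70 assignments. This is the smallest p these assignments allow. After adjustment over the 10 library measures compared it was 0.286, and no measure passed (adjusted exact p up to 0.771). A single measure at the smallest exact p could not pass this adjustment, so the adjusted value does not decide whether Trb usage differed. Leaving out any 1 library labelled knockout gave an exact p of 0.0571. By mean distance, 7 of 8 libraries were nearer to their own label, and the exception was wild type 4. Wild type 4 lay 0.0710 to 0.0939 from the libraries labelled knockout and 0.0714 to 0.0886 from the other wild type libraries.

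The evenness of Trb usage did not differ past the test by the main measure, the effective number of segments, but other measures separated the labels. The effective number of segments is the number that would give the observed diversity (Shannon entropy) if all were used equally. It was 14.8, 14.4, 14.6 and 14.4 in the libraries labelled knockout, against 15.2, 14.7, 14.8 and 14.8 in the wild type libraries. The means were 14.5 ± 0.18 in the libraries labelled knockout and 14.9 ± 0.22 in the wild type libraries (SD, n = 4 each; exact two-sided permutation p = 0.0857). Computed on counts per gene length the difference was -0.611 (libraries labelled knockout minus wild type, exact p = 0.0286), and over V families it was -0.250 (exact p = 0.2). As inverse Simpson (1 over the sum of squared shares) it was -0.828 (exact p = 0.0286). Pielou evenness, the entropy over its maximum for the segments counted, was 0.862 to 0.877 in the libraries labelled knockout. It was 0.898 to 0.916 in the wild type libraries and was not tested. It depends on how many segments have a count, which differed between labels. The 5 largest segments took 52.8% to 56.2% of Trb V counts in the libraries labelled knockout and 51.4% to 53.7% in the wild type libraries. Trbv13-2 was the largest segment by counts in all 4 libraries labelled knockout and in wild type 4, while Trbv1 led in wild type 1 and 3 and Trbv2 in wild type 2. Of the 22 segments, 22, 21, 22 and 22 had a count in the libraries labelled knockout, against 20, 19, 19 and 20 in the wild type libraries; the missing ones were Trbv4, Trbv5 and Trbv21. Thinned to 1465 counts, the depth of wild type 2, the libraries labelled knockout still held 20.97 to 21.92 segments.

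The Trb V sum was 178.6, 184.3, 179.0 and 186.9 CPM in the libraries labelled knockout, against 156.0, 161.4, 150.9 and 184.6 CPM in the wild type libraries. Wild type 4 lay among the libraries labelled knockout, and the difference did not pass (182.2 ± 4.1 and 163.2 ± 14.9 CPM, exact permutation p = 0.114). Without wild type 4 the difference was 26.1 CPM, with an exact p of 0.0286, the smallest that 35 assignments allow. The beta constant genes Trbc1 and Trbc2, to which the V exons are spliced, had log2 fold changes of 0.05 and 0.12 (adjusted p = 0.633 and 0.177). There were 0.272 ± 0.017 Trb V counts per constant region count in the libraries labelled knockout and 0.259 ± 0.024 in the wild type libraries (exact permutation p = 0.571).

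**Figure D3:**
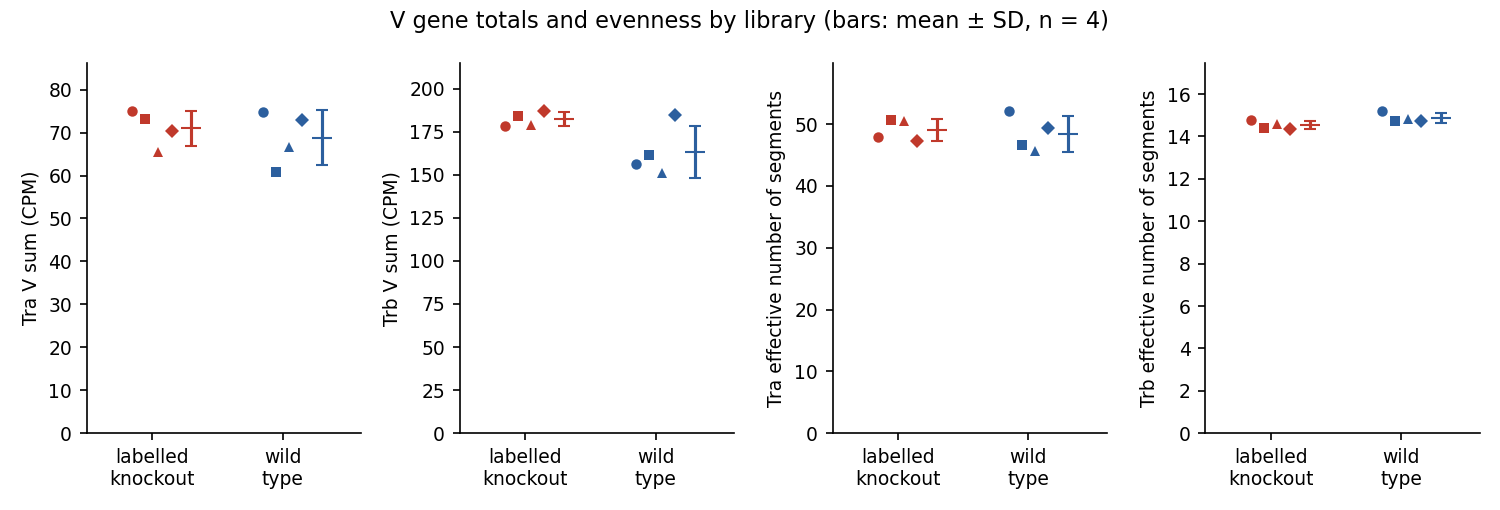
V sums per locus (CPM) and effective number of V segments for Tra and Trb in each library, with mean ± SD of 4 libraries beside the points; libraries labelled knockout in red, left of wild type in blue. Trb V sums ran from 178.6 to 186.9 CPM in the libraries labelled knockout, and wild type 4 at 184.6 CPM lay among them.

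No Tra segment passed the main tests with all 8 libraries. Some alternatives with all 8 did bring calls. With no filter on low counts, Trav4n-4 and Trav14n-2 were called in the whole table, and Trav4n-4 relative to the locus. With a replicate block, Trav6n-7 was called relative to the locus. In the whole-table fit, edgeR called 0 of 35, DESeq2 0 and limma-voom 0, and 4 had an unadjusted edgeR p under 0.05. Leaving out 1 library brought calls in 2 cases: Trav5-4 and Trav6n-7 without wild type 2, and Trav9-1 without wild type 3 (edgeR adjusted p = 0.0447). Relative to the Tra V sum, edgeR called 0 of 35, with 3 under 0.05 unadjusted, where 21.5% of all tested genes were called (8.58% higher and 12.9% lower) and their median was -0.049. The median log2 fold change was -0.02 over the 35 segments on the whole-table scale, and 17 of them were positive. Of the 108 members, 73 did not pass the filter and were not tested.

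The shares of the most frequent Tra segments overlapped between groups, with Trav9-1 as the exception. Trav7-4 had 61, 64, 43 and 54 counts in the libraries labelled knockout, against 50, 32, 72 and 57 counts in the wild type libraries. This was 5.46% ± 0.54 of Tra V counts in the libraries labelled knockout and 5.86% ± 1.19 in the wild type libraries. Trav14n-3 held 4.17% ± 1.12 in the libraries labelled knockout and 4.75% ± 1.09 in the wild type libraries. Per base of length, these and Trav3-3 and Trav9-1 were the first 4, at 4.91%, 4.83%, 4.62% and 4.10% over all 8 libraries. Single Tra shares carried Wilson intervals of up to 2.02 percentage points to either side, so the order among these segments was not resolved.

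Trav3-3 and Trav9-1 had the largest differences among the 10 most frequent. Trav3-3 had 51, 48, 46 and 94 counts in the libraries labelled knockout, against 47, 15, 46 and 44 counts in the wild type libraries. Knockout 4 stood above and wild type 2, the shallowest library, below the rest, and the log2 fold change was 0.54 (SE 0.25, edgeR adjusted p = 0.103). Without knockout 4 it was 0.29 (edgeR adjusted p = 0.436). Trav9-1 had 37, 36, 29 and 34 counts in the libraries labelled knockout, against 53, 32, 36 and 57 counts in the wild type libraries. Its shares did not overlap (3.36% ± 0.16 in the libraries labelled knockout, 4.99% ± 0.88 in wild type), but the log2 fold change of -0.52 (SE 0.23) had an adjusted p of 0.0860. Shares did not overlap for 2 of the 35 tested Tra segments, Trav9-1 and Trav10, where 19.9% of all tested genes did not overlap on the Tra scale.

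Trav10 had 31, 27, 31 and 32 counts in the libraries labelled knockout, against 12, 12, 24 and 23 counts in the wild type libraries. Its log2 fold change was 0.64 (SE 0.29, adjusted p = 0.0989). The family of 3 Trav10 copies held 4.23% ± 0.25 in the libraries labelled knockout and 3.17% ± 0.21 in the wild type libraries, also without overlap. Trav19, which did not pass the filter, had 17, 12, 11 and 10 counts in the libraries labelled knockout, against 8, 3, 6 and 5 counts in the wild type libraries. The remaining frequent segments, Trav14-1, Trav9-2, Trav14d-3-dv8, Trav14-3, Trav14-2 and Trav4-4-dv10, had log2 fold changes from -0.15 to 0.49 with adjusted p of 0.211 or more. The largest family, Trav14 with 9 copies, held 18.1% ± 0.70 in the libraries labelled knockout and 18.7% ± 2.63 in the wild type libraries.

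Some Tra segments varied from library to library within a label far more than these. Trav14n-1 had 3, 37, 5 and 8 counts in the libraries labelled knockout, against 8, 1, 2 and 48 counts in the wild type libraries. Knockout 2 and wild type 4 each held most of their group's counts. Trav6n-7 had 27, 24, 11 and 0 counts in the libraries labelled knockout, against 0, 12, 0 and 0 counts in the wild type libraries. Its log2 fold change of 2.13 had an SE of 1.43 and an adjusted p of 0.311, and groups overlapped. Trav13n-4 had 10, 15, 18 and 1 counts in the libraries labelled knockout, against 5, 2, 7 and 20 counts in the wild type libraries. Trav14n-1 and Trav13n-4 did not pass the filter and were not tested.

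Trav4n-4, singled out after its values were seen, had the widest spread of the 54 segments with at least 40 counts. It had 0, 0, 0 and 2 counts in the libraries labelled knockout, against 30, 0, 2 and 20 counts in the wild type libraries, and did not pass the filter. With no filter, edgeR called it lower (adjusted p = 4.09e-06), although wild type 2 had no count and the groups overlapped. Trav14n-2, with 12 counts in wild type 4 and none elsewhere, was called in the same way (adjusted p = 0.0376).

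Trav14n-1, Trav6n-7 and Trav4n-4 also share a sequence property: each is identical over its whole transcript to a d copy and has no 100-base window of its own. Within each pair the n copy held most counts. Over all libraries, Trav14n-1 had 112 and Trav14d-1 7, Trav6n-7 had 74 and Trav6d-7 4, and Trav4n-4 had 54 and Trav4d-4 0. Added to the d copy, the counts stayed uneven. Trav14n-1 with Trav14d-1 had 3, 37, 5 and 15 counts in the libraries labelled knockout, against 8, 1, 2 and 48 in the wild type libraries. Trav6n-7 with Trav6d-7 had 27, 24, 13 and 0 counts in the libraries labelled knockout, against 1, 12, 0 and 1 in the wild type libraries. Trav6-7-dv9, the near relative printed beside them, had 7, 13, 7 and 14 counts in the libraries labelled knockout, against 13, 12, 13 and 15 in the wild type libraries. The part of shared reads and of counting in the uneven segments was not tested.

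**Figure D4:**
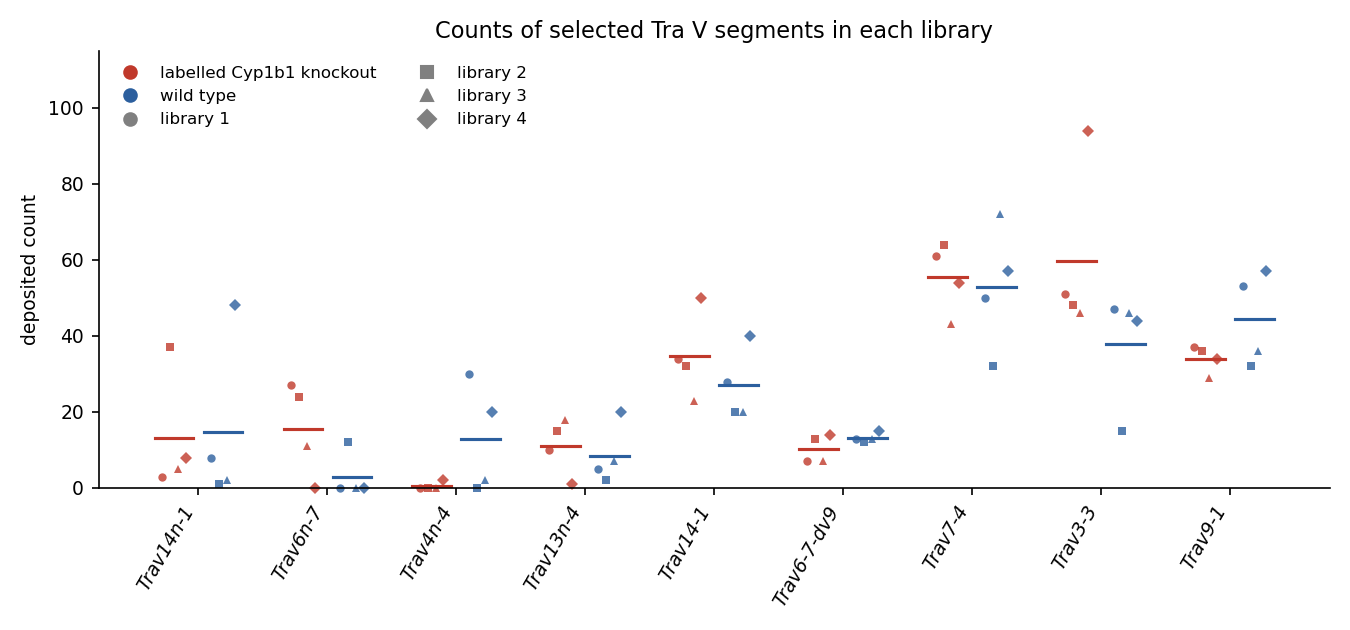
Deposited counts of 9 Tra V segments in each library, libraries labelled knockout in red and wild type in blue, bars for means. Trav14n-1, Trav6n-7 and Trav4n-4 have most of their counts in a few libraries, while Trav14-1, Trav6-7-dv9 and Trav7-4 are counted in all 8.

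The coefficient of variation of a segment's share within a label puts a size on this. Of 54 Tra segments with at least 40 counts in all, the 3 with no unique window had coefficients of 1.08 to 1.51. The 46 with at least 50% unique windows had a median of 0.320, and the highest of them was 0.775, for Trav13n-4. The 5 between these had a median of 0.493. Across the 54 segments the coefficient followed the total count (Spearman rho -0.704) more than the share of unique windows (rho -0.23), as a description over segments of the same libraries. Against counting error alone, shares varied between libraries of a label with a chi-square per degree of freedom of 2.47 (labelled knockout) and 2.81 (wild type) for Tra, and 1.78 and 1.92 in that order for Trb.

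**Figure D5:**
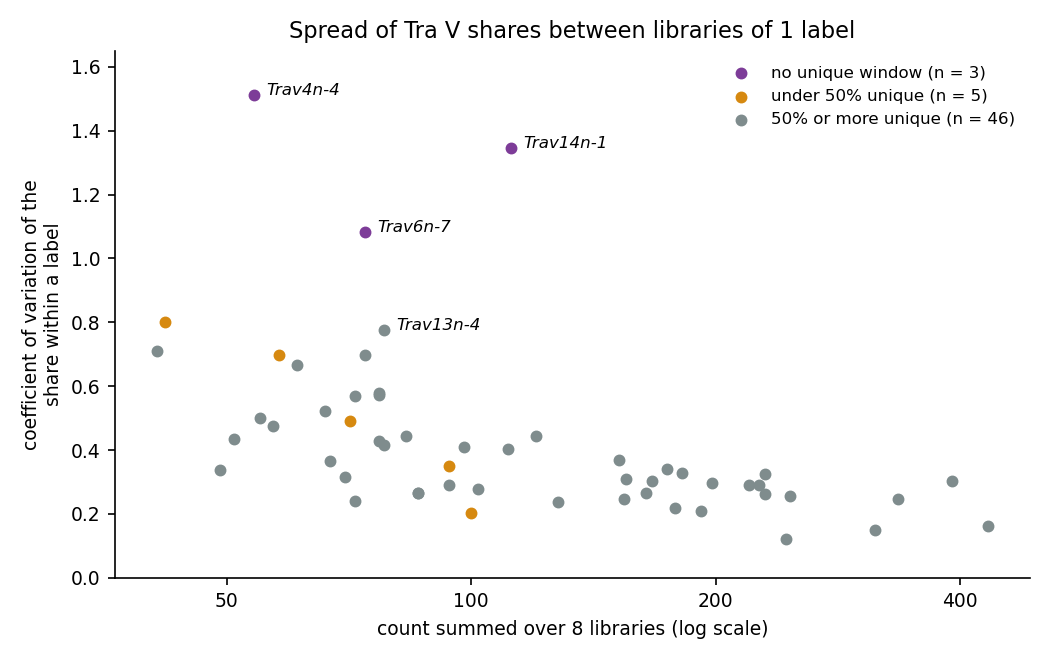
Coefficient of variation of the share within a label against the summed count (log scale) for 54 Tra V segments with at least 40 counts, coloured by how many of their 100-base windows occur in no other transcript. The 3 segments with no unique window lie between 1.08 and 1.51, above the other 51.

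By place in the locus, the 46 Tra segments without a d or n in their symbols held 72.2% of Tra V counts and the 62 d and n copies 27.8%. The copies held 26.4% ± 1.12 in the libraries labelled knockout and 29.5% ± 3.58 in the wild type libraries. The copies also had a median of 0% unique windows, against 91.7% for the segments without these letters. How much of the difference in counts this carries was not tested.

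No difference in Tra usage as a whole passed the main tests. The Jensen-Shannon distance averaged 0.288 between labels and 0.279 within a label (exact permutation p = 0.171). This depended on the measure: by Bray-Curtis distance, between minus within was 0.0152 (exact permutation p = 0.0286, the smallest that 70 assignments allow). The effective number of Tra segments was 49.1 ± 1.71 in the libraries labelled knockout and 48.4 ± 2.90 in the wild type libraries (exact permutation p = 0.686). The 10 largest segments took 37.5% to 41.9% of Tra V counts in the libraries labelled knockout and 38.0% to 41.5% in the wild type libraries. Thinned to 552 counts, a library held 66.0 to 69.6 Tra segments in the label knockout and 64.1 to 71.4 in wild type. The Tra V sum was 71.0 ± 4.1 CPM in the libraries labelled knockout and 68.8 ± 6.4 CPM in the wild type libraries (exact permutation p = 0.571). The alpha constant gene Trac had a log2 fold change of -0.01 (adjusted p = 0.910).

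Segments of invariant T cells, whose receptors use 1 fixed alpha V segment, were almost uncounted. Trav11, the alpha segment of invariant natural killer T cells, had 0, 0, 0 and 3 counts in the libraries labelled knockout, against 0, 0, 1 and 0 counts in the wild type libraries, and Trav11d had none. Only 0.4% of the windows of Trav11 are unique. Traj18, the J segment joined to it in those cells, had 94 counts over all libraries, with a log2 fold change of -0.55 (SE 0.41, adjusted p = 0.328). Trav1, the segment of mucosal-associated invariant T cells, had 6, 3, 0 and 2 counts in the libraries labelled knockout, against 4, 1, 2 and 1 counts in the wild type libraries. Trbv13-2, Trbv1 and Trbv29, described above, are beta segments that invariant natural killer T cells use, along with many conventional T cells.

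Gamma and delta segments were near the limit of detection. Trgv2 had 18 of the 25 Trg V counts, with 1, 4, 4 and 2 in the libraries labelled knockout and 2, 0, 5 and 0 in the wild type libraries. Trdv1 had 5, 5, 7 and 12 counts in the libraries labelled knockout, against 1, 4, 11 and 9 in the wild type libraries. Trdv2-2 had 14 counts in all and Trdv5 13; Trdv5 overlaps the delta constant gene Trdc on the opposite strand, and no step that marks strand is named in the protocol. The Trg V sum was 0.262 ± 0.129 CPM in the libraries labelled knockout and 0.175 ± 0.167 CPM in the wild type libraries (exact permutation p = 0.343), and the Trd V sum 0.781 ± 0.383 and 0.862 ± 0.405 CPM in that order (p = 0.771). The gamma constant gene Tcrg-C2 rose (11, 14, 19 and 13 counts in the libraries labelled knockout, 4, 4, 6 and 7 in wild type; log2 fold change 1.30, SE 0.42, adjusted p = 0.0231). The delta constant gene Trdc, with 253 counts in all, did not pass (log2 fold change -0.15, SE 0.28, edgeR adjusted p = 0.722). At so few V counts a change in gamma or delta V usage was not detectable. Of the clone-named rows, B230359F08Rik had 27 counts and C920008G01Rik none; RefSeq lists the IDs as Trav13-5 and Trav7d-6.

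The genes that make and hold the receptor were read beside the segments. Rag1 and Rag2, the recombinase, had 0 counts in all 8 libraries, and Ptcra, the pre-receptor alpha chain, had 6. Dntt, which adds untemplated bases at V(D)J joints, fell, with 168, 241, 267 and 219 counts in the libraries labelled knockout, against 360, 225, 387 and 278 in the wild type libraries (log2 fold change -0.61, SE 0.14, adjusted p = 0.00228). Of the CD3 signalling chains, Cd247 rose by 0.20 on the log2 scale (adjusted p = 0.0226), and Cd3d, Cd3e and Cd3g, at 0.12, 0.11 and 0.05, did not pass.

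Markers of other cell types moved with the labels as well. Of 11 B cell markers, 10 were lower in the libraries labelled knockout, where 14.6% of all tested genes were called lower and 15.7% higher. The list summed to 391 to 562 CPM in the libraries labelled knockout, against 503 to 773 CPM in the wild type libraries. The exception was Ighm (log2 fold change -0.01, edgeR adjusted p = 0.969). It averaged 342.5 and 345.9 CPM in that order, most of these sums. Of 6 dendritic cell markers 3 were tested and 2, Flt3 and Zbtb46, were lower, with Clec9a at 0. The list summed to 11.4 to 18.1 CPM in the libraries labelled knockout and 29.1 to 31.6 CPM in wild type. Flt3 alone averaged 11.3 and 23.9 CPM in that order, so these sums mostly follow Flt3. Itgax did not pass (edgeR adjusted p = 0.401). Of 8 gamma-delta T cell markers 5 were tested. Tcrg-C2 was higher, but it entered the test only through the libraries labelled knockout, as described above. Maf and Blk, which other cells also express, were lower. The list summed to 128.0 to 154.2 CPM in the libraries labelled knockout and 185.2 to 218.8 CPM in wild type. Maf alone averaged 128.4 and 168.3 CPM in that order, so these sums mostly follow Maf. Blk is on the B cell list as well. Of 6 natural killer cell markers 3 were tested and 1 was lower, and neither CD8 gene passed. Of the 6 invariant T cell genes only Traj18 was tested. The macrophage list summed to at most 2.44 CPM, with C1qa at 0. The part of these cells in V segment usage was not tested.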

How the data were processed

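RNA of 8 libraries was captured by its poly(A) tail, fragmented and copied with random hexamers, per the labels' protocols, which name no strand-marking step. The authors deposited raw counts per gene, whole numbers with no normalization. Reads were handled with fastp, per the submitters' processing notes; the aligner, the counter, their treatment of multi-mapped reads and the genome build are each not given in the sources used here. All 144 V rows had the same positions in GENCODE M21 (GRCm38). A count per V gene shows neither the J segment, the junction nor the clone, and reads that span a V-J joint may be lost.

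Counts were analysed with edgeR 4.0.16 in R 4.3.3 (filterByExpr with minimum count 10 and minimum total 15, TMM, robust quasi-likelihood F-test, two-sided, Benjamini-Hochberg over all 14428 tested genes, called at adjusted p under 0.05). Relative to a locus, the summed V count of that locus replaced the library size. SEs were computed from the log2 fold change and the square root of F. CPM values are TMM-scaled; shares are percent of the locus V counts of a library. Values per library were compared by exact permutation over 70 assignments. Libraries within a label differed beyond counting noise (chi-square per gene 3.69 to 12.3), so each library counted once. The edgeR fit was tested on simulated data, with TMM and with library sizes supplied from the simulation. Scaling to a summed V count that contains the tested segment was not simulated. The members, lists and rules were chosen with earlier results of these data known. Named were the 10 most frequent Tra and Trb segments, called segments, the 3 of each locus with the widest spread within labels among those with a mean share of at least 1%, Trg and Trd segments with at least 10 counts, and receptor, recombination and invariant T cell genes. Alternatives were other scalings, filters and tests (DESeq2 1.42.0, limma-voom 3.58.1), a replicate block, pseudogenes added, gene length, family sums, other measures, and each library left out. Recombination signals next to the segments were not used here.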

Additional observations from a re-analysis of the deposited data

Results flagged for a closer look

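In groups of 4 libraries, a value was singled out where its gap to the nearest other value exceeded Dixon's 95% critical share of the group's range. This held in 8 of 76 groups examined. Chance alone marks about 1 in 20 groups of normally spread values, but a group with a single nonzero value is always marked. That was so for Trav11 under both labels and for Trav6n-7 in wild type, so these 2 rates cannot be compared. Knockout 2 stood apart with Trav14n-1 at 3.504% of Tra V counts, and wild type 4 with 4.524% of the same segment. Wild type 2 was the only wild type library with Trav6n-7, at 2.174%. Both segments are identical to another copy, and the part of shared reads was not tested. Wild type 1 held 7.101% of Trb V counts in Trbv31, above the other wild type libraries. Trav11 was counted in 1 library of each label, at 0.2762% of Tra V counts in knockout 4 and 0.1045% in wild type 3, on 3 counts and 1 count. Among the libraries labelled knockout, knockout 1 had the lowest Trg V sum, at 0.07072 CPM on 1 count, and knockout 3 the lowest Tra V count per Trac count, at 0.2413; wild type libraries reached lower in both measures.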

How the results depend on the processing

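Trbv13-2 stayed higher and called in the 15 alternatives of the whole-table fit (log2 fold change 0.50 to 0.76) and the 12 relative to the locus (0.38 to 0.54). Without a filter on low counts, 6 V segments were called in the whole table in place of 3 (Trav14n-2, Trav4n-4, Trbv1, Trbv13-2, Trbv23, Trbv5), and 1 Tra segment relative to its locus in place of 0. Limma-voom called 1 Trb segment relative to the locus in place of 2. Same-numbered libraries deviated together with correlations of 0.0507 to 0.0906, and 5 of 8 libraries correlated best with their own number, so the numbers only hint at pairs; with a replicate block, 1 Tra segment (Trav6n-7) and 4 Trb segments (Trbv13-2, Trbv15, Trbv17, Trbv23) were called relative to their locus, and 3 in the whole table. The Tra V sum differed by -0.179 CPM (libraries labelled knockout minus wild type) with library totals, where the main value was 2.22. The Trb effective number differed by -0.611 per gene length, -0.345 with pseudogenes and -0.828 as inverse Simpson, each with an exact p of 0.0286, and by -0.250 over V families (exact p = 0.2). The Tra distance between labels minus within was 0.0152 by Bray-Curtis (exact p = 0.0286) and 0.00615 to 0.00887 under the other 3 measures (exact p = 0.143 to 0.2). Leaving out each library gave ranges of -0.452 to 4.23 CPM for the Tra V sum (reversed without wild type 2), 14.9 to 26.1 CPM for Trb, 0.0285 to 0.151 CPM for Trg and -0.274 to 0.0205 CPM for Trd (reversed without knockout 1 or 2 or wild type 3 or 4). The effective number ranged from -0.263 to 1.88 for Tra (reversed without wild type 3) and -0.413 to -0.228 for Trb (p = 0.0286, exact, without knockout 1). The distance ranged from -0.00247 to 0.0207 for Tra (reversed without knockout 2) and 0.0261 to 0.0435 for Trb. V counts per constant count ranged from -0.00155 to 0.0178 for Tra (reversed without wild type 2) and 0.00163 to 0.0211 for Trb. Called were 2 to 4 segments in the whole table, and not always the same ones: Trbv31 was called without wild type 1, Trav5-4 and Trav6n-7 without wild type 2, Trav9-1 without wild type 3 and Trbv20 without wild type 4. Called relative to their locus were 0 to 1 Tra (Trav6n-7, without knockout 4 or wild type 2) and 1 to 4 Trb segments (1 without knockout 2, 3 or 4 or wild type 1 or 3, and 4 without wild type 4). The causes were not tested. Depth left no Trg or Trd segment to test, and Tra shares rest on as few as 552 V counts, in wild type 2.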
